A study of Mus musculus with 9 samples.

Results

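Fibroblasts of the mouse line NIH3T3-CG that carried Thy1 messenger RNA were compared with fibroblasts of the same cultures in which none was captured. The cells came from the 3 libraries of Experiment 2 that are labelled Dox, taken at 0, 19 and 30 h of SAG, a small molecule that activates Smoothened and so switches on the Hedgehog pathway. A cell entered if it had 15000 to 60000 unique molecular identifiers (UMIs, each counting 1 captured transcript) and at most 10% of them from mitochondrial genes. It was called Thy1-positive with at least 3 Thy1 UMIs and Thy1-negative with 0. Of 3980 cells within these limits, 1756 were positive, 1168 were negative and 1056 had 1 or 2 UMIs and were left between the classes. The 2924 cells compared stand against 11776 cells within the limits and 50106 barcodes in the 9 libraries of the series. Each class was summed within its library, so the comparison was made in pairs of sums, 1 pair per library. The cells were thus chosen by their measured Thy1 UMIs, and the values of Thy1 are given as a description without a test.

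Thy1 (CD90) is a small glycoprotein of the immunoglobulin superfamily held in the outer leaflet of the plasma membrane by a glycosylphosphatidylinositol (GPI) anchor. It is best known from thymocytes, neurons and fibroblasts, where it binds integrins and syndecans and is used to separate fibroblasts that differ in contractility, matrix production and adipogenic potential. In the Hedgehog pathway, ligand binding to Patched1 releases Smoothened, which leads to activation of the Gli transcription factors and of targets such as Gli1 and Ptch1.

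The other libraries of the series were Experiment 1 at 0, 17 and 30 h of SAG, whose labels do not mention Dox, and Experiment 2 at 0, 19 and 30 h without Dox. Neither the product that Dox switches on in this line nor the culture behind each library is named in the labels. The p-values thus measure only how much the class difference varied between libraries, which may be technical. In the Dox libraries a change of that difference with SAG time is part of this spread. Each Dox condition has 1 library, and the 3 times stand as the replicates of the class difference; no library at the later times is labelled as kept without SAG. A line of 1 established cell type is a limited model of tissue fibroblasts.

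The 0 h library held 21 positive and 893 negative cells, the 19 h library 846 and 217, and the 30 h library 889 and 58. The class sums ranged from 906988 UMIs (positive, 0 h) to 37827337 UMIs (positive, 30 h), so the 0 h positive class and the 30 h negative class are the least precise. A threshold on raw UMIs takes deeper cells: the median positive and negative cell had 41948 and 28067 UMIs at 0 h, 41546.5 and 31989 at 19 h, and 43261 and 30523.5 at 30 h. A mitochondrial share under 1% was found in 29.0% of the negative and 16.8% of the positive cells at 19 h, and in 31.0% and 16.6% at 30 h. All cells of both classes had UMIs of at least 3 of 9 fibroblast markers after thinning to 15000 UMIs, and none had 3 markers of T lymphocytes, neurons, endothelium or epithelium. Of 9 T lymphocyte markers, 6, 1 and 1 were detected in negative cells at 0, 19 and 30 h and 0, 5 and 4 in positive cells. Their summed level was 0.306, 0.141 and 0.522 CPM in negative and 0, 1.16 and 1.14 in positive cells, with Cd3e, Cd2 and Cd8a at 0 throughout; its part in the results was not tested. Of the barcodes within the limits, 1 was shared between a pair of the 3 Dox libraries.

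Thy1 (ENSMUSG00000032011, GRCm38 chromosome 9, 44043384 to 44048579, plus strand) was at 12.2 CPM (its UMIs scaled to 1e+06 UMIs of the class or library) over all cells within the limits at 0 h (95% Poisson interval 11.1 to 13.4), 98.1 at 19 h (95.6 to 101) and 163 at 30 h (160 to 167). The positive share was 1.68% of 1247 cells at 0 h (exact binomial 95% interval 1.05 to 2.56), 53.4% of 1583 at 19 h (50.9 to 55.9) and 77.3% of 1150 at 30 h (74.8 to 79.7). The 3 intervals did not overlap, and they cover counting error only. At 30 h the median cell had 6 Thy1 UMIs and the highest 37, while at 0 h the median was 0 and the highest 7. The classes are the ends of a range and not cell types. Just outside the threshold, with 2 UMIs, were 64, 241 and 101 cells at 0, 19 and 30 h, and just inside, with 3 UMIs, were 19, 190 and 101.

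Without Dox, Experiment 2 gave positive shares of 2.63%, 16.2% and 52.0% at 0, 19 and 30 h, and Experiment 1 gave 14.9%, 25.8% and 21.5% at 0, 17 and 30 h. The Dox libraries were thus higher at 19 and 30 h and lower at 0 h than their counterparts of Experiment 2, with 1 library on each side and no test. At 0 h the 95% intervals overlapped (1.05 to 2.56 with Dox, 2.04 to 3.33 without). Thy1 in Experiment 2 without Dox was at 16.0, 38.6 and 76.8 CPM at 0, 19 and 30 h. Thinned to 15000 UMIs per cell, with the same threshold, the Dox shares were 0.0802%, 19.3% and 41.0%. Those of Experiment 2 without Dox were 0.558%, 3.13% and 13.6%. Within the 19 h Dox library the positive share went from 35.1% of cells with 15000 to 30000 UMIs to 71.0% of cells with 45000 to 60000, while Thy1 CPM in those bins was 94.98 and 103. At 30 h with Dox the share went from 54.6% to 84.4%, with Thy1 at 165 and 153 CPM. At 19 and 30 h with Dox the share of positive cells therefore moved with the depth of a cell at nearly level Thy1 CPM. At 0 h with Dox the share went from 0.311% to 9.30% between the same bins, and Thy1 was not level, at 9.81 and 18.9 CPM.

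**Figure D1:**
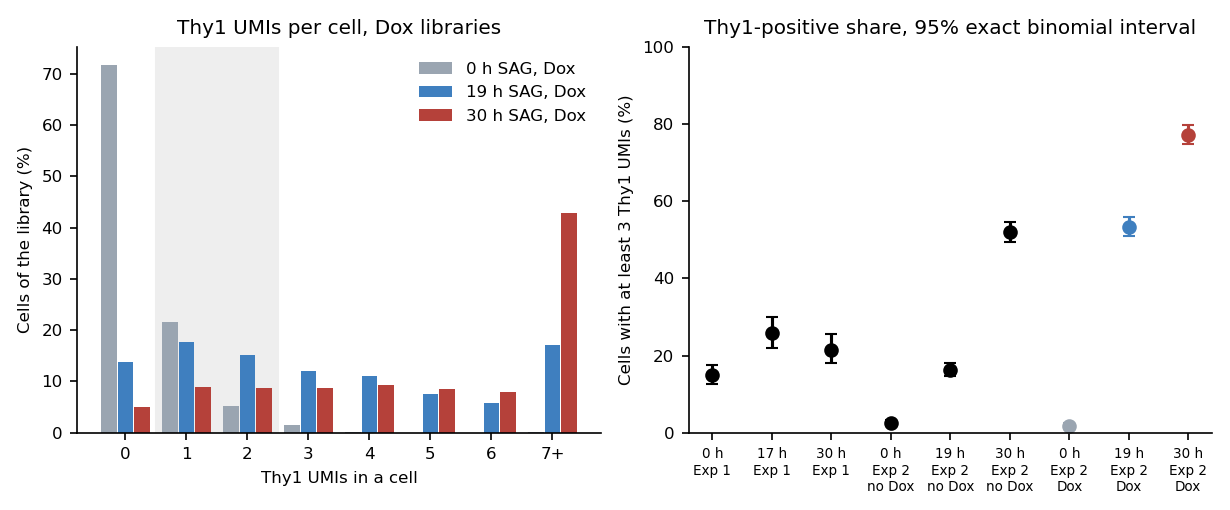
Left, share of cells (%) by Thy1 UMIs per cell in the 3 Dox libraries, with the cells left between the classes shaded and the last bar holding 7 or more UMIs. Right, share of cells with at least 3 Thy1 UMIs (%) in all 9 libraries with exact binomial 95% intervals; the Dox libraries stand at 1.68%, 53.4% and 77.3%.

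Across 11925 genes tested in the 3 Dox libraries (edgeR quasi-likelihood test with library as a block, Benjamini-Hochberg adjusted p under 0.05, 2 residual degrees of freedom), 56 genes differed between the classes, or 0.47%. Higher in positive cells were 43 genes (0.361% of those tested) and lower were 13 (0.109%). Among the higher genes were the basement membrane collagens Col4a1 and Col4a2, the smooth muscle genes Tagln and Acta2, cyclin D1 (Ccnd1), the peptide hormone Cck and the membrane protein Tmem176a. The lists of immediate early genes and of NF-kB targets and chemokines were split: Fos and Jund, and Ccl5 and Cxcl5, fell, while the AP-1 gene Fosl1 (1.77, SE 0.36, adjusted p = 0.0444), the cytokine Csf1 (0.51) and the cyclooxygenase Ptgs2 (0.68) rose. Other lower genes were the peroxiredoxin Prdx4 and the retinoic acid binding protein Crabp1. Differences ran from 0.40 to 2.13 (log2) among the higher and from -0.36 to -1.76 among the lower. Of the 56 genes, 54 had the same direction in all 3 libraries. Without the 0 h library, with its 21 positive cells, 47 of them were called in the same direction, where 0.682% of 12324 genes were called. With equal numbers of positive and negative cells in each bin of 5000 UMIs, 53 of the 56 could be tested, all 53 kept their sign and 14 were called, on fewer cells and with 8999 genes tested (0.2% called, 0.178% higher and 0.0222% lower). The calls of Col4a1, Col4a2, Tagln, Acta2, Cck, Slit2, Tmem176a and Usp2 remained there. Among the higher genes, those of Ccnd1, Thbs1, Spp1, Ncam1, Mgp and Tpm1 ended. Among the lower genes, those of Prdx4, Mfap4, Crabp1, Mt1, Gm42418, Ifit1, F3 and Lars2 ended. In the split lists, the calls of Fos, Jund, Cxcl5, Csf1 and Ptgs2 ended with matched depth too. Those of Csf1 and Ptgs2 also ended with DESeq2. The call of Fosl1 ended without the 0 h library and with cells thinned to 15000 UMIs. Without the 19 h library 23 of the 56 were called, and those of Tpm1, Hsd17b7, Ncam1, Cebpd, Mgp, Slit2, Crabp1, Mt1 and Ccl5 were among the calls that ended; that of Fos ended without the 30 h library.

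**Figure D2:**
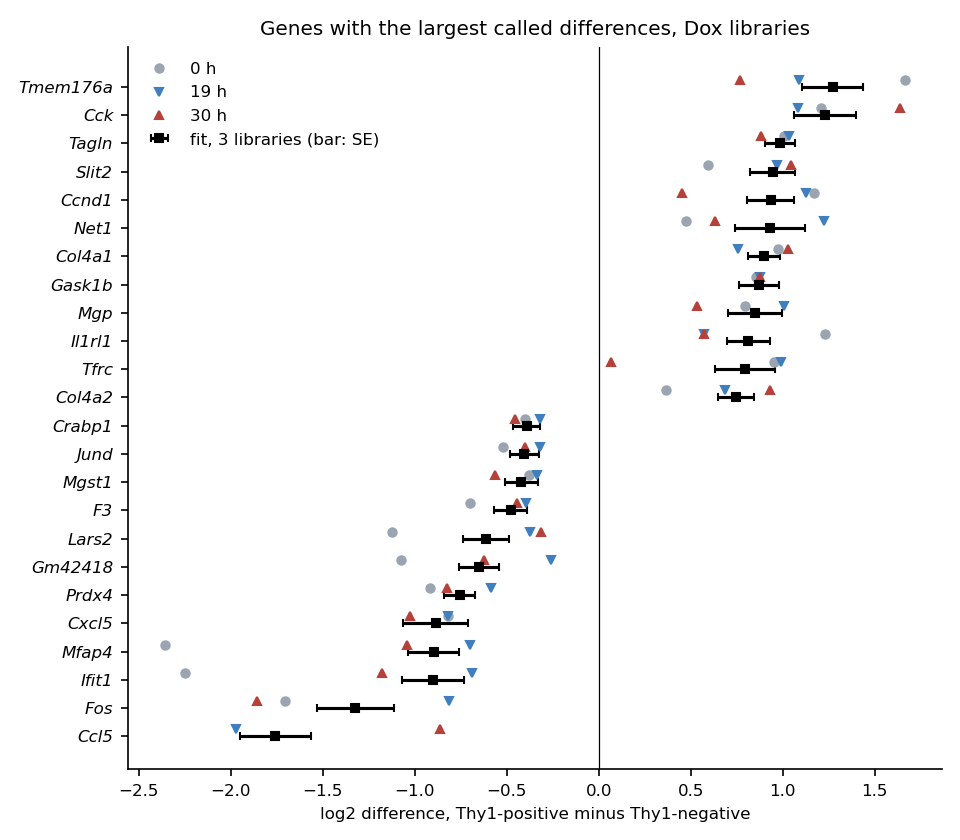
log2 difference between the sums of Thy1-positive and Thy1-negative cells for the 12 largest called rises and 12 largest called falls among genes with the same direction in all 3 Dox libraries and at least 10 CPM in either class of each. Squares are the fit of the 3 Dox libraries with its SE, and other points the libraries alone; a library in which a class had 0 UMIs is not drawn. Tagln lies between 0.88 and 1.03 in the 3 libraries and Tfrc at 0.07 at 30 h.

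Col4a1 and Col4a2, which encode 2 chains of type IV collagen, a basement membrane protein, rose together. Col4a1 (ENSMUSG00000031502, chromosome 8, 11198423 to 11312826, minus strand) was at 39.2 CPM in negative and 83.8 in positive cells at 0 h, 222 and 387 at 19 h, and 296 and 607 at 30 h. Positive cells were above negative cells in each library, and the fitted difference was 0.90 (log2, SE 0.09, adjusted p = 0.000184, edgeR, n = 3 libraries). Col4a2 (chromosome 8, 11312805 to 11449287, plus strand) was at 22.0 and 30.9 CPM at 0 h, 109 and 183 at 19 h, and 133 and 254 at 30 h. It was 0.75 higher (SE 0.10, adjusted p = 0.00165), with positive above negative in each library. Cells with 1 or 2 Thy1 UMIs held 263 CPM of Col4a1 at 19 h and 362 at 30 h, between the classes in both. Nearly all cells carried the transcript: a Col4a1 UMI was found in 95.9% of negative and 99.5% of positive cells at 19 h. Both calls ended in 1 alternative, the fit without the library as a block.

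The 2 genes start head to head, and their promoter windows are shown because both genes were called and their starts lie side by side. The RefSeq windows of GRCm38.p6 run from 250 bases before to 50 bases after each start, at chr8:11312777-11313076 on the minus strand for Col4a1 and chr8:11312555-11312854 on the plus strand for Col4a2. Capitals mark the 78 bases that the windows share, read on opposite strands.
Col4a1: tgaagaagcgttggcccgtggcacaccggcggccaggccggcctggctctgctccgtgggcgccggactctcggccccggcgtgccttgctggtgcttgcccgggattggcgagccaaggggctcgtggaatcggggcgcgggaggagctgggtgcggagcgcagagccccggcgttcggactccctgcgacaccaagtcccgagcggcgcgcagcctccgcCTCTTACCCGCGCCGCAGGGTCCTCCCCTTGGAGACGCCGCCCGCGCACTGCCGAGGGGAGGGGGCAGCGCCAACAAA
Col4a2: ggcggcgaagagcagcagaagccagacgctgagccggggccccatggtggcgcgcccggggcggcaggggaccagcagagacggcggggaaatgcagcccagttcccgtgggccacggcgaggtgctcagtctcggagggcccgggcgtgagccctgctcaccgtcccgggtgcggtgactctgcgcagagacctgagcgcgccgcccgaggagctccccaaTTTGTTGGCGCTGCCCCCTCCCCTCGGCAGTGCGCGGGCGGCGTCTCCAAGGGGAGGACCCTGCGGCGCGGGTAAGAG
The UMIs of these 3' libraries are read from the far ends of the genes, away from the shared stretch.

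Of the smooth muscle and contractile genes, Tagln, Acta2 and Tpm1 rose. Tagln (transgelin, an actin-binding protein of smooth muscle) was at 135 CPM in negative and 295 in positive cells at 0 h, 55.6 and 118 at 19 h, and 60.1 and 111 at 30 h. The positive sum was above the negative sum in each library, although the negative sum at 0 h exceeded the positive sums of the later times. Single cells of the classes overlapped: at 0 h 74.5% of negative and 85.7% of positive cells had a Tagln UMI, and the highest had 65 and 60. The fitted difference was 0.99 (SE 0.08, adjusted p = 5.36e-05, edgeR). Acta2 (smooth muscle actin, the usual marker of myofibroblasts) went from 208 to 334 CPM at 0 h, 150 to 266 at 19 h and 265 to 415 at 30 h. Its difference was 0.66 (SE 0.08, adjusted p = 0.00103), again with positive above negative in all 3 libraries. Tpm1, a tropomyosin of stress fibres, was 0.40 higher (SE 0.08, adjusted p = 0.0287). Of 20 tested contractile genes and targets of serum response factor (SRF), these 3 were called and 12 had an unadjusted p under 0.05 on the higher side against 0 on the lower, where 615 of all 11925 genes had one on the higher side. The list's median was 0.32, against -0.00 for all genes tested. With matched depth 2 of the list were called, and the 30 h median went from 0.23 (17 of 20 above 0) to 0.05 (13 of 20). Myl9, a myosin light chain, was at 5.79 and 12.4 CPM at 19 h and 13.6 and 17.7 at 30 h and did not pass (0.87, SE 0.19, adjusted p = 0.06). Summed smooth muscle and myofibroblast markers, which include Tagln and Acta2, stood at 366 CPM in negative and 656 in positive cells at 0 h, 245 and 419 at 19 h, and 365 and 561 at 30 h. Myocd, the master regulator of the smooth muscle programme, was at 0 in the positive cells of all 3 libraries. It was also at 0 in the negative cells at 19 and 30 h.

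**Figure D3:**
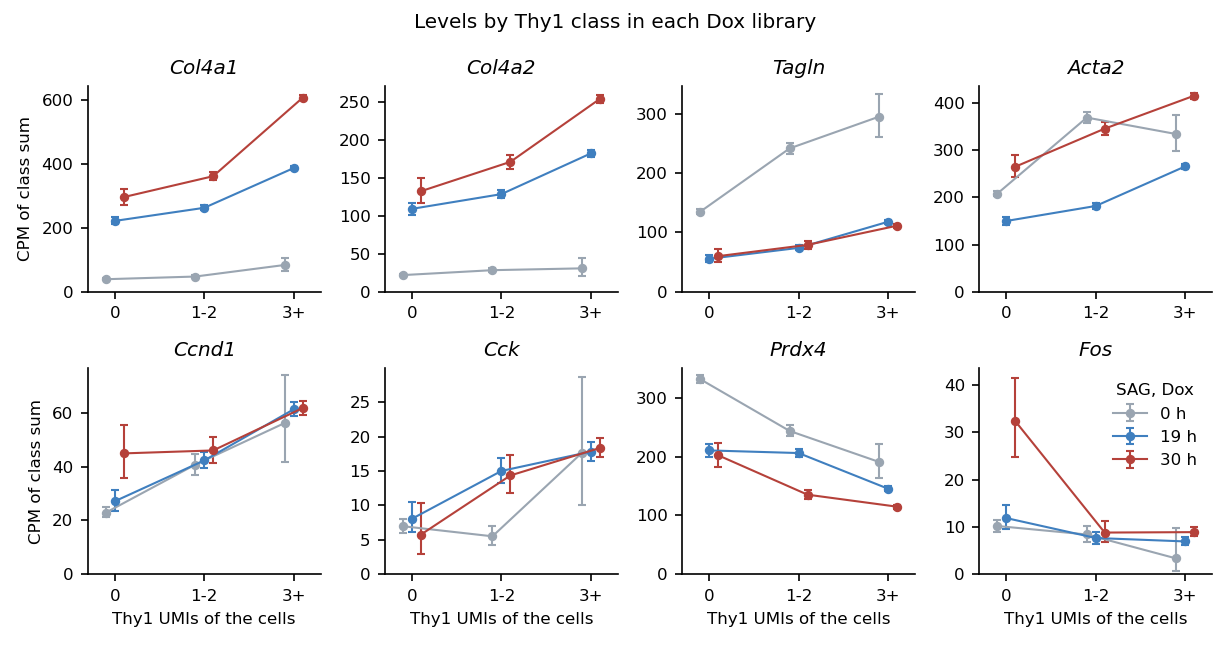
Summed CPM of 8 genes in cells with 0, 1 to 2 and at least 3 Thy1 UMIs in each Dox library; bars are exact 95% Poisson intervals, which cover counting error only. Col4a1 reaches 607 CPM in the positive cells at 30 h, and Prdx4 is lowest in the positive cells of each library.

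Of 38 tested extracellular matrix genes, 3 were higher (Col4a1, Col4a2 and Thbs1), none was lower, and the median was 0.15. The list had 2 calls and a median of 0.05 with matched depth, and 5 calls and a median of 0.22 without the 0 h library. Thbs1 (thrombospondin 1, which activates latent TGF-beta) was at 177 and 271 CPM at 0 h, 89.2 and 132 at 19 h, and 50.1 and 98.4 at 30 h, a difference of 0.61 (SE 0.09, adjusted p = 0.00684). The interstitial collagen gene Col1a2 was at 1671 and 1535 CPM at 0 h, 2525 and 2920 at 19 h and 2804 and 3124 at 30 h, with a fitted difference of 0.02 (SE 0.08, adjusted p = 0.97). Basement membrane partners of type IV collagen did not pass: Nid1 (nidogen) had a difference of 0.41 (SE 0.09, adjusted p = 0.06). Lamb1, a laminin chain, had 0.35 (SE 0.10) with an adjusted p of 0.21. Other secreted proteins were called higher. Spp1 (osteopontin) differed by 0.56 (SE 0.09, adjusted p = 0.00965). Mgp, matrix Gla protein, an inhibitor of calcification, was 0.85 higher with an adjusted p of 0.0182 (SE 0.15). The call of Mgp ended with DESeq2, with matched depth and with cells thinned to 15000 UMIs. The axon guidance ligand Slit2 was 0.94 higher (SE 0.12, adjusted p = 0.00165). Slit2 was at 17.4 and 35.3 CPM at 19 h and 18.8 and 39.2 at 30 h. No gene of the TGF-beta list passed (0 of 17, median 0.17, or 0.06 with matched depth, 6 with unadjusted p under 0.05 on the higher side).

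Among genes of proliferation and growth, Ccnd1 (cyclin D1, the G1 cyclin and a Hedgehog target in several tissues) was at 22.9 and 56.2 CPM at 0 h, 27.1 and 61.3 at 19 h, and 44.9 and 61.8 at 30 h. Positive cells were above negative cells in each library and differed little between libraries, and the difference was 0.93 (SE 0.13, adjusted p = 0.00207). The apoptosis inhibitor Bcl2 was at 9.46 and 16.8 CPM at 19 h and 10.4 and 23.5 at 30 h (0.85, SE 0.17, adjusted p = 0.0382). The growth factor Igf1 was at 2.40 and 8.19 CPM at 19 h and 4.18 and 10.3 at 30 h (1.52, SE 0.30, adjusted p = 0.0415). In the positive class at 0 h Igf1 had 0 UMIs, where 3 UMIs would be 3.31 CPM. Ccnd1, Bcl2 and Igf1 were the 3 genes called among 19 tested Hedgehog targets, whose median was 0.18. With matched depth 0 of the list were called, at a median of 0.20. The calls of Igf1 and Bcl2 ended without the 19 h library, without the 30 h library and with cells thinned to 15000 UMIs. That of Bcl2 also ended with matched depth and in cells without Mki67 and Top2a UMIs.

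The core readouts of the pathway did not differ at this threshold. Gli1 was at 24.6 CPM in negative and 26.9 in positive cells at 19 h and at 37.6 and 35.5 at 30 h, with a fitted difference of 0.01 (SE 0.12, adjusted p above 0.99). Ptch1 was at 93.5 and 99.0 CPM at 19 h and 118 and 142 at 30 h (0.12, SE 0.09, adjusted p = 0.75). Gli2, the main transcriptional activator of the pathway, was at 22.0 and 31.7 CPM at 19 h and 24.6 and 32.5 at 30 h, and its difference of 0.42 (SE 0.12) had an adjusted p of 0.21. GFP_g1, a feature added to the reference that the labels do not describe, was at 47.0 and 52.2 CPM at 19 h and 46.0 and 51.1 at 30 h (0.10, SE 0.12, adjusted p = 0.85). None of 23 tested components of the pathway was called. With matched depth 1 of the list was called higher, at a list median of 0.06. A missed threshold does not show that these genes were equal in the classes.

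Cck (cholecystokinin, a peptide hormone) was at 6.96 and 17.6 CPM at 0 h, 8.05 and 17.8 at 19 h, and 5.75 and 18.4 at 30 h. It was higher in the positive cells of each library (1.23, SE 0.17, adjusted p = 0.00207). The 0 h positive value rests on 16 UMIs in 5 cells, and without the top cell of each class it was 8.82 against 6.58 CPM. In Experiment 2 without Dox it lay between 0.0 and 0.4 CPM in both classes at all times, and in Experiment 1 between 16.5 and 83.6. Tmem176a, a membrane protein of the MS4A-related family, was at 8.19 and 18.2 CPM at 19 h and 8.36 and 14.4 at 30 h (1.27, SE 0.17, adjusted p = 0.0017); at 0 h its positive class held 50 UMIs, 42% of them in 1 cell. Cebpd, a transcription factor of early adipogenesis and inflammation, was at 41.8 and 76.9 CPM at 19 h and 43.4 and 72.9 at 30 h (0.73, SE 0.10, adjusted p = 0.00165). It was the gene called among 10 tested adipogenic genes; Pparg, the master regulator of fat cells, had 0 UMIs in the negative cells of all 3 libraries and 1 UMI in the positive cells of each of the later 2. Hist1h1b and Hist1h2ae, replication-dependent histone genes, had the largest fitted differences, 2.13 (SE 0.29) for the first and 2.08 (SE 0.31) for the other. These rested on the 0 h library, where Hist1h2ae was at 44.1 and 312 CPM with 68.9% of the positive UMIs in 1 cell, against 5.22 and 5.34 CPM at 30 h. Both lost their call without that library.

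Lower in positive cells was Prdx4 (a peroxiredoxin of the endoplasmic reticulum), at 332 CPM in negative and 191 in positive cells at 0 h, 210 and 145 at 19 h, and 202 and 115 at 30 h. The positive sum was below the negative sum in each library (-0.76, SE 0.09, adjusted p = 0.00073, edgeR). Crabp1 was at 526 and 437 CPM at 19 h and 443 and 325 at 30 h (-0.39, SE 0.07, adjusted p = 0.0287), and Mt1 (a metallothionein) at 853 and 721 and at 722 and 558 (-0.36, SE 0.07, adjusted p = 0.0415). Mfap4, a microfibril-associated glycoprotein, was at 28.7 and 18.2 CPM at 19 h and 42.8 and 20.8 at 30 h (-0.90, SE 0.14, adjusted p = 0.00684). Gm42418, a locus that overlaps ribosomal RNA, was the most abundant gene called, at 9137 and 4715 CPM at 0 h, 4181 and 3615 at 19 h, and 2891 and 1887 at 30 h (-0.65, SE 0.11, adjusted p = 0.0149). Its reads cannot be assigned to a messenger RNA with certainty. The calls of Prdx4, Crabp1, Mt1, Mfap4 and Gm42418 all ended with matched depth. Those of Crabp1 and Mt1 also ended in cells of 1% to 10% mitochondrial UMIs.

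Several of the lower calls turned on few cells. Ccl5, which attracts T cells and monocytes, was at 51.1 and 13.4 CPM at 19 h and 14.1 and 7.75 at 30 h (-1.76, SE 0.19, adjusted p = 0.000632). Of its 362 UMIs in negative cells at 19 h, 313 lay in 1 cell, and of 27 at 30 h, 26 did. Without the top cell of each class, Ccl5 was at 6.92 CPM in negative and 8.42 in positive cells at 19 h and at 0.522 and 6.64 at 30 h, so the order of the classes turned. Ifit1, an interferon-induced RNA sensor (-0.90, SE 0.17, adjusted p = 0.0287), held 75.7% of its 37 negative UMIs at 30 h in 1 cell and 35.6% of 149 at 19 h. Without the top cell of each class it was at 13.6 and 11.5 CPM at 19 h and at 4.70 and 7.61 at 30 h. Fos (-1.32, SE 0.21, adjusted p = 0.00847) was at 11.9 and 6.91 CPM at 19 h and 32.4 and 8.88 at 30 h, with 43.5% of the 62 negative UMIs at 30 h in 1 cell. Without the top cell of each class it was still lower in the positive cells, at 18.3 and 8.195 CPM at 30 h and 9.32 and 6.39 at 19 h. In the sums of Col4a1, Tagln and Prdx4 at 19 and 30 h, the top cell held at most 17.05% of the UMIs of a class.

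Sterol synthesis genes lay above 0 nearly throughout. All 22 genes of the cholesterol list were higher in positive than in negative cells at 0 h and at 19 h, with medians of 0.42 and 0.38, and 18 of 22 at 30 h with a median of 0.10. The summed level was 1990 and 2763 CPM at 0 h, 2137 and 2793 at 19 h, and 2625 and 2745 at 30 h. In the fit 1 of 22 was called, Hsd17b7 (0.57, SE 0.10, adjusted p = 0.0248), whose call ended with DESeq2, with matched depth (0 of 22 called) and without the 19 h library, and 18 had an unadjusted p under 0.05 on the higher side. Idi1, an isomerase of the isoprenoid steps, was at 84.3 and 134 CPM at 19 h and 98.2 and 98.7 at 30 h and did not pass (0.42, SE 0.11, adjusted p = 0.12). With classes matched for depth the list's medians were 0.38, 0.22 and 0.24 at 0, 19 and 30 h.

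Cell division genes went in different directions at different times, and none of 24 genes of the G2 to M list was called. At 0 h all 24 were higher in positive cells, with a median of 1.85 and summed levels of 109 and 470 CPM. At 19 h 1 of 24 was higher, with a median of -0.68 and sums of 177 and 134 CPM, and at 30 h 12 of 24 were, with a median of -0.01. The later values moved with the setting: with matched depth the medians were -0.42 at 19 h and -0.94 at 30 h, at 1% to 10% mitochondrial UMIs -0.43 and -0.60, and in cells without Mki67 and Top2a UMIs 0.31 and 0.46. Cells without a UMI of the division markers Mki67 and Top2a made up 79.2% of negative and 52.4% of positive cells at 0 h, where the positive class has 21 cells, 45.2% and 33.5% at 19 h, and 46.6% and 29.9% at 30 h, a share that depth also moves. Mki67 stood at 6.70 and 33.1 CPM at 0 h, where all 30 positive UMIs lay in 5 cells, 5.65 and 6.88 at 19 h and 9.40 and 3.60 at 30 h (0.53, SE 0.44, adjusted p = 0.77), and Top2a at 17.1 and 59.5, 59.3 and 58.6, and 44.4 and 67.0 (0.40, SE 0.19, adjusted p = 0.53).

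**Figure D4:**
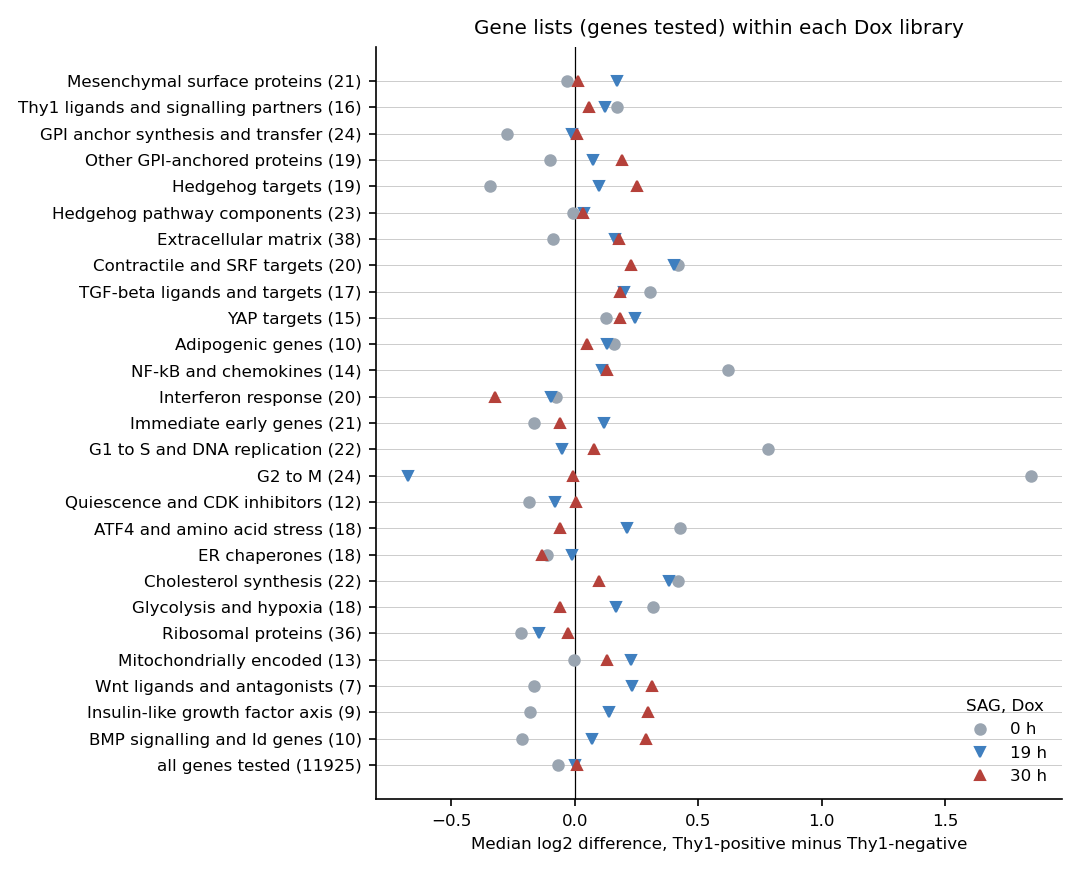
Median log2 difference between Thy1-positive and Thy1-negative cells over the tested genes of 26 lists and of all genes tested (number of genes in parentheses), in each Dox library. The G2 to M list spans 1.85 at 0 h to -0.68 at 19 h, while cholesterol synthesis lies above 0 in each library.

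Among 20 tested interferon response genes Ifit1 was called lower, 6 had an unadjusted p under 0.05 on the lower side and the medians were -0.08, -0.10 and -0.32 at 0, 19 and 30 h. With cells of 1% to 10% mitochondrial UMIs the 30 h median was 0.06, and the call of Ifit1 ended. Genes encoded by mitochondrial DNA were higher in positive cells at 19 h (13 of 13, median 0.23) and at 30 h (13 of 13, median 0.13), without a call. In cells of 1% to 10% mitochondrial UMIs 12 of 13 were higher at 19 h and 1 of 13 at 30 h, where the median was -0.11. With matched depth 13 of 13 were higher at 19 h (median 0.12) and 6 of 13 at 30 h (median -0.02), so the 30 h direction did not hold in either setting. Of the cytosolic ribosomal protein genes, 35 of 36 were below 0 at 0 h and at 19 h and 28 of 36 at 30 h, with medians of -0.22, -0.15 and -0.03. At 30 h the direction turned with matched depth (25 of 36 above 0, median 0.03) and in cells without Mki67 and Top2a UMIs (26 of 36, median 0.03), while at 19 h the medians there were -0.14 and -0.16. None was called and 14 had an unadjusted p under 0.05 on the lower side, where 533 of all 11925 genes had one.

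Genes tied to Thy1 itself showed little. Of 21 tested surface proteins of mesenchymal cells, 1 was called, the neural cell adhesion molecule Ncam1. It was at 157 and 233 CPM at 19 h and 235 and 296 at 30 h (0.45, SE 0.08, adjusted p = 0.0287). With matched depth 0 of the list were called, and the call of Ncam1 also ended with positive from 2 UMIs. The hyaluronan receptor Cd44, often measured beside Thy1 on stromal cells, was at 72.6 and 92.5 CPM at 19 h and 116 and 142 at 30 h (0.37, SE 0.11, adjusted p = 0.24). Among 16 tested integrin, syndecan and kinase partners none was called (median 0.14); the integrin chain Itgav had 0.19 (SE 0.09, adjusted p = 0.54), while the syndecan Sdc4 had 0.28 with an adjusted p of 0.30 (SE 0.09). None of 24 genes that build or transfer the GPI anchor was called (median 0.00), nor any of 19 other GPI-anchored proteins (median 0.06). Pdgfra and Pdgfrb, the platelet-derived growth factor receptors of fibroblasts, had differences of -0.05 and -0.16 with adjusted p of 0.95 and 0.61 (SE 0.11 and 0.09). The adhesion protein Cdh11 had 0.54 (SE 0.16, adjusted p = 0.24).

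The nearest tested gene on the downstream side of Thy1 was called. Usp2 (a ubiquitin-specific protease, chromosome 9, 44067021 to 44095627, plus strand) starts 18.4 kb beyond the end of Thy1 on the same strand. It was at 8.33 and 25.6 CPM at 19 h and 6.27 and 36.9 at 30 h, and a Usp2 UMI was found in 21.2% of negative and 50.7% of positive cells at 19 h and in 17.2% and 58.0% at 30 h. The fitted difference was 1.72 (SE 0.22, adjusted p = 0.00165, edgeR), and the call ended with DESeq2 and without the library block. At 0 h its positive class had 0 UMIs, where 3 UMIs would be 3.31 CPM, against 1.45 CPM in negative cells. The other measured neighbours were not called: Rnf26, 47.1 kb away, differed by 0.23 (SE 0.15, adjusted p = 0.67), Gm26737 by 0.47 (SE 0.85, adjusted p = 0.92), and on the upstream side Nectin1, 235.9 kb away, by 0.34 (SE 0.19, adjusted p = 0.61), D630033O11Rik by 0.02 (SE 0.34, adjusted p above 0.99) and Oaf by 0.24 (SE 0.09, adjusted p = 0.35). The median difference of the 645 tested genes of chromosome 9 was 0.01, within the range of -0.05 to 0.07 over all chromosomes. Of these 645 genes 5 were called higher, Usp2 among them, and 2 lower, against 43 and 13 of all 11925 genes tested. The part of position in these calls was not tested.

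The same split was made in the 6 libraries without a Dox label, which share no cell with the Dox libraries. They held 1507 positive and 3194 negative cells, and 593 of 10341 genes were called, or 5.73%, with 292 higher (2.82%) and 301 lower (2.91%). Positive cells were deeper in each of these libraries too. Their median positive and negative cell had 35735 and 27441 UMIs in Experiment 1 at 0 h. In Experiment 2 without Dox at 30 h these were 46965 and 35644. With matched depth 217 genes were called higher and 188 lower, of 9805 tested. The part of depth in the shared calls was not tested. Of the 43 genes higher in the Dox libraries 41 were tested there, all 41 had the same sign and 23 were called, which is 53.5% of the Dox list and 7.88% of the other. Of the 13 lower genes 12 were tested, 10 had the same sign and 5 were called (F3, Gm42418, Lars2, Mt1 and Prdx4), or 38.5% and 1.66% of the lists. Ccl5 and Crabp1 had the opposite sign, with 0.02 for the first (SE 0.26, adjusted p = 0.99) and 0.32 for the other (adjusted p = 0.23, SE 0.15). Tagln was 0.64 higher (SE 0.08, adjusted p = 0.00169), Acta2 1.23 (SE 0.19, adjusted p = 0.00459), Col4a1 0.48 (SE 0.08, adjusted p = 0.00461) and Usp2 0.84 (SE 0.13, adjusted p = 0.00461). Positive cells were above negative cells in 6 of 6 libraries for each of these 4 genes. Col4a2 differed by 0.31 (SE 0.10, adjusted p = 0.0779).

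**Figure D5:**
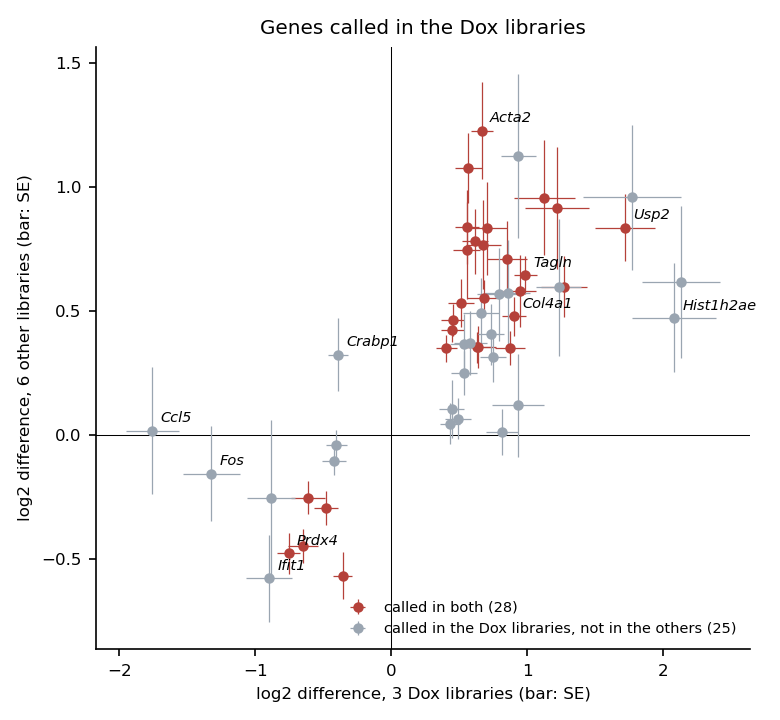
log2 difference between Thy1-positive and Thy1-negative cells in the 3 Dox libraries (x) and in the 6 other libraries (y) for the genes called in the Dox libraries and tested in both; bars are SE. The 41 higher genes all lie above 0 on the y axis, and Ccl5 and Crabp1 lie left of 0 on the x axis and above 0 on the y axis.

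Some lists that had few calls with Dox had many in the 6 other libraries, where the fit has 5 residual degrees of freedom in place of 2. Of 22 cholesterol genes 21 were higher, with a median of 0.62, of 18 contractile genes 11 were higher, and of 36 ribosomal protein genes 25 were lower. Of 35 matrix genes 12 were higher and Thbs2 was lower. Cd44 was called there (0.71, SE 0.10, adjusted p = 0.0023). The 16 Hedgehog targets tested gave 0 calls in these libraries, and none of the 24 G2 to M genes was called. The difference between the Dox and the other libraries in these counts was tested only gene by gene within Experiment 2, as follows.

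In the 6 libraries of Experiment 2, 1 fit asked whether the class difference changed from 0 h to the later times and with Dox. With SAG time 135 of 11689 genes changed (1.15%), 50 upward (0.428%) and 85 downward (0.727%). Among the upward genes was the collagen gene Col3a1, which in the Dox libraries was at 540 CPM in negative and 266 in positive cells at 0 h, 505 and 519 at 19 h, and 425 and 515 at 30 h (change 0.90, adjusted p = 8.92e-06, edgeR). Aspn, a small leucine-rich proteoglycan, went from 126 and 43.0 CPM at 0 h to 81.2 and 89.7 at 19 h and 92.5 and 88.4 at 30 h. Among the downward genes was Hmgb2, a chromatin protein abundant in dividing cells, at 53.6 and 161 CPM at 0 h, 50.2 and 45.1 at 19 h, and 72.6 and 45.3 at 30 h, a change of -1.29. At 0 h the positive cells of the Dox library thus had less Col3a1 and Aspn and more Hmgb2 than the negative cells; the 0 h libraries with and without Dox held 21 and 66 positive cells. With Dox 5 genes changed (0.0428%), Cebpd and Tmem158 upward (0.0171%) and Ccl5, Ptn and Fos downward (0.0257%); DESeq2 called 0, with 113 at an unadjusted p under 0.05.

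Across cells, Thy1 went with few genes. In each Dox library the cells were thinned to 15000 UMIs and Pearson's r of log counts with Thy1 was taken for 5355 genes, as a description of 1247, 1583 and 1150 cells that share their library and depth. Col4a1 had the highest median r, at 0.03, 0.33 and 0.37 at 0, 19 and 30 h, and Col4a2 the next, at 0.00, 0.24 and 0.29. They were followed by Eva1b (0.20 at 19 h and 0.24 at 30 h), Col16a1 (0.19 and 0.24), Cebpd (0.18 and 0.19), Ncam1 (0.18 and 0.25), Igfbp7 (0.16 and 0.18) and Col1a2 (0.14 and 0.16). At 0 h, where few cells had Thy1, none of these 8 passed 0.04. The lowest medians belonged to the ribosomal protein genes Rps21, Rpl7a, Rps27a and Rps15a, between -0.14 and -0.16, and the median over all 5355 genes was 0.01. In counts this sparse the weaker values carry little weight.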

How the data were processed

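The deposited files hold UMI counts per gene and cell barcode, made by the authors with Cell Ranger on mm10, per the submitters' processing notes; the file headers give versions 3.1.0 (Experiment 1) and 6.0.1 (Experiment 2). The strand setting of the counting is not given in the sources used here. Fits within Experiment 2, among them that of the Dox libraries, started from its 32286 features. Fits that include Experiment 1 started from the 30407 features shared by both experiments. Counts were summed per class and library. The test was edgeR 4.0.16 in R 4.3.3 (TMM, filterByExpr, quasi-likelihood F test, library as a block because both classes come from the same library), with Benjamini-Hochberg adjustment over all genes tested and a threshold of 0.05. Log2 differences of single libraries used a prior count of 2. In simulated sums, all genes were given the same dispersion (spread beyond counting error) of 0.00445. There the fit of the Dox libraries recovered 80.6% of 98 genes changed by 1 (log2) and 98.0% of 99 changed by 2, with 3 false calls. The simulation held no spread particular to a gene, no effect of cell depth and no UMIs concentrated in single cells. It therefore does not give the error rates of the real comparison. Intervals are exact and cover counting error only. Scrublet marked 11 of 1362, 10 of 2046 and 8 of 1578 barcodes with at least 5000 UMIs in the 0, 19 and 30 h Dox libraries; they were left in. Gene positions are GENCODE on GRCm38.

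The members and gene lists were chosen with earlier results of these data known. Named genes were the 12 largest rises and 12 largest falls as in the plot of them, up to 4 called genes per list, a set of Hedgehog, fibroblast and division genes, the 3 nearest tested genes on each side of Thy1, up to 4 genes per direction of the SAG and Dox differences, and the 8 highest and 4 lowest correlations. Hist1h1b, Hist1h2ae, Usp2's detection shares, Spp1, Mt1, Myl9, Nid1, Lamb1, Idi1, Itgav, Sdc4 and Thbs2 were added after their values were seen. Alternatives were DESeq2 1.42.0, other filters, thresholds, depth limits, matched depth and leaving out libraries.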

Additional observations from a re-analysis of the deposited data

Results flagged for a closer look

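In Experiment 2 the difference between Thy1-positive and Thy1-negative cells changed from 0 h to the later SAG times for 135 genes, by the interaction term of edgeR with Benjamini-Hochberg adjusted p under 0.05. The difference moved toward positive cells for Col3a1 (0.90 on the log2 scale), Aspn (1.81), Ogn (1.05) and Ctla2a (1.36). It moved toward negative cells for Hmgb2 (-1.29), Hist1h2ap (-1.92), Cenpf (-1.60) and Pttg1 (-1.86). The 0 h libraries hold 21 and 66 positive cells with and without Dox.

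The difference changed with Dox for 5 genes, by the same test: Cebpd (0.64), Tmem158 (0.73), Ccl5 (-2.40), Ptn (-3.10) and Fos (-1.50). Ptn and Ccl5 lay in few cells. At 19 h with Dox 5 negative cells held 93.2% of the 88 Ptn UMIs of their class, and 1 negative cell held 313 of 362 Ccl5 UMIs. DESeq2 called 0 of these changes, with 113 genes at an unadjusted p under 0.05, and so did edgeR with all 9 libraries, with 462. The fit of all 9 libraries treated Experiment 1 as without Dox, which its labels do not state.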

How the results depend on the processing

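In the Dox libraries edgeR called 43 genes higher and 13 lower, and DESeq2 called 19 and 12, with 27 of the 56 called by both. The edgeR counts were 129 and 47 with no filter on low counts, 11 and 3 with positive from 2 UMIs, 248 and 151 from 5, 16 and 2 with matched depth, 74 and 39 at 25000 to 45000 UMIs, and 65 and 33 in cells without Mki67 and Top2a UMIs. Chosen after seeing the data, and without the 0 h library, matched depth gave 27 and 7, and 1% to 10% mitochondrial UMIs gave 103 and 37. Leaving out 1 library gave 28 to 63 higher and 16 to 70 lower. Without the library as a replicate block edgeR called 0 and 0, with 325 genes of either direction at an unadjusted p under 0.05.

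In the 6 other libraries (292 and 301) the counts were 467 and 474 with no filter, 0 and 0 without the block (156 of either direction at an unadjusted p under 0.05), 188 lower with matched depth, and 133 to 271 and 111 to 222 without 1 library. Changes with SAG numbered 67 by DESeq2, 287 with no filter and 35 with matched depth; changes with Dox numbered 0 by DESeq2 and with all 9 libraries, 29 with no filter and 12 with matched depth.

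Positive shares at 0, 19 and 30 h were 6.82%, 68.7% and 86.1% from 2 UMIs, 0.0802%, 30.4% and 59.3% from 5, and 0.0802%, 19.3% and 41.0% when thinned. Signs reversed for Ccl5 (1.66 at 25000 to 45000 UMIs, 3.90 without division markers), Ankrd1 (-0.11 at 25000 to 45000 UMIs), Hmgb2 (-0.40 from 5 UMIs, -0.46 at 25000 to 45000 UMIs), Hist1h2ap (-0.44 from 5 UMIs) and Hist1h1b (-0.15 from 5 UMIs, -0.24 without division markers). Under those 3 settings the 0 h library drops out, with under 20 cells in a class. Leaving out that library alone gave -1.76 for Ccl5, 0.46 for Ankrd1, 0.32 for Hist1h1b, -0.39 for Hmgb2 and -0.22 for Hist1h2ap; the cause was not tested.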
